A study of Mus musculus with 8 samples.

Results

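The 4 libraries of the control hairpin group shfLuc were taken from a series of 8 RNA sequencing libraries, by their titles, to describe what the mouse dorsomedial hypothalamus expressed. The titles mark the tissue as laser microdissected (LMD) dorsomedial hypothalamus (DMH), and the genotype label of the group is fLuc knockdown, a hairpin against firefly luciferase, an insect enzyme that the mouse genome does not encode. The other 4 libraries carry a hairpin against Ppp1r17 and are not analysed here. The labels used here do not give the age, sex, strain or time of collection of the mice, nor how the hairpin was delivered, nor if the libraries are from different animals. The spread among the 4 libraries is therefore the spread between libraries, which may be technical in part.

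The dorsomedial nucleus lies in the tuberal hypothalamus between the ventromedial nucleus, the lateral hypothalamic area and the third ventricle. It is known for roles in feeding, body temperature, daily rhythms and stress responses. Its neurons release fast transmitters, glutamate or GABA, and many also make peptides. Peptides are cut from larger precursor proteins by convertases, and most act on receptors coupled to G proteins. The lateral hypothalamic area next to it holds the neurons that make melanin-concentrating hormone (MCH) and orexin.

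The values are TPM (transcripts scaled to a fixed total), which are scaled by gene length and library. Different genes are compared on this scale. How well it puts short and long genes of amplified RNA on a par was not tested. Libraries 1 to 4 held 23070147, 23436873, 23203833 and 25749643 estimated reads. A gene was called detected at 1 TPM or more in each of the 4 libraries, which held for 13509 of 55487 identifiers (24.3%) and for 12082 of 21974 protein-coding ones (55%). Counts of detected list members given below without a share are to be set beside this 55%. On average 7711 genes stood at 10 TPM or more, 1540 at 100 or more and 133 at 1000 or more. Library 1 stood apart from the other 3. The chi-square of a pair of libraries, divided by its degrees of freedom (1 where reads vary by counting alone), was 16.6 to 33.1 for pairs with library 1 and 7.46 to 11.9 for the others. The gap was narrower in the median absolute log2 difference of detected genes, at 0.154 to 0.179 for pairs with library 1 and 0.136 to 0.145 for the others. Library 1 had the highest shares of mitochondrially encoded, ribosomal protein and ribosomal RNA transcripts (12.8%, 7.67% and 1.28% of TPM), against ranges of 11.1 to 11.8%, 6.75 to 6.85% and 0.562 to 0.733% in the others. Among protein-coding genes at 10 TPM or more, the longest 10% stood 0.13 log2 units lower in library 1 than in the mean of the other 3, and 0.11 higher in library 3, while the shortest 10% differed by 0.0088 and -0.018. Of all detected genes 36.7% were lowest in library 1, against 18.1 to 26.3% in each of the others. Genes called low or lowest in library 1 below are to be set beside this share. The part of gene length and RNA quality in the differences between libraries was not tested.

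Ppp1r17, which encodes an inhibitor of protein phosphatases and marks a group of dorsomedial neurons, stood at 118, 134, 137 and 139.6 TPM in libraries 1 to 4 (132 ± 9.73, SD, n = 4). It ranked 1129th among protein-coding genes. The luciferase hairpin is not directed at this gene, and the 4 levels lay close together, with a coefficient of variation (CV, the SD as a percentage of the mean) of 7.36%.

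The highest nuclear genes were mostly those of basic cell functions, with 2 peptide precursors and a secretory granule protein among them. Cst3 (cystatin C, a secreted protease inhibitor) stood at 5097 ± 617 TPM (SD, n = 4) and Actb (beta-actin) at 5019.8 ± 939.8. Calm2 (calmodulin) stood at 4696 ± 345 TPM. Sod1 (superoxide dismutase) and Fth1 (ferritin heavy chain) stood at 4237 ± 412 and 3884 ± 386 TPM. Resp18, a protein of neuroendocrine secretory granules, stood at 3868 ± 47.7 TPM and had the smallest SD relative to its level of these genes. Gal, the galanin precursor, and Pmch, the MCH precursor, ranked 19th and 28th among all protein-coding genes. Ubb (polyubiquitin) was listed at 16210.0 ± 2076 TPM, but near-identical sequence lies elsewhere in the genome, so its level is uncertain. Others of the 20 highest were Hspa8 and Aldoa (a chaperone and a glycolytic enzyme), Tecr (lipid synthesis), Zwint, Atp6v0c (a proton pump subunit) and the ribosomal protein genes Rpl41, Rps14, Rps19, Rpl3 and Rpl13a, between 2462 and 3530.5 TPM.

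Mitochondrially encoded genes held 11.8 ± 0.75% of TPM, led by mt-Atp8 at 18404 ± 1582 TPM and mt-Co3 at 18366 ± 2764. Nuclear pseudogenes that copy mitochondrial genes share reads with them, so the split between the copies is uncertain. Both mt-Atp8 and mt-Co3 also share exon positions with mt-Atp6 (12398 TPM) on the same strand, so their levels are uncertain too. By estimated reads, which are not scaled by length, mt-Atp8 (15311 to 19138) lay far below mt-Co3 (173430 to 246920). Among noncoding RNAs, Bc1, a short RNA of neuronal dendrites, stood at 14992 ± 2903 TPM and Malat1, a nuclear RNA, at 2847 ± 609. The 10, 100 and 1000 highest genes held 13.7 ± 0.49%, 34.3 ± 0.72% and 70.1 ± 0.60% of TPM. Without the mitochondrially encoded genes the 100 highest held 27.7%.

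By TPM, peptide precursors were led by galanin, MCH and orexin. Of 82 precursor genes found in the files, 46 were detected (56.1%, near the 55% of all protein-coding genes), 25 were below 1 TPM in every library and 12 of those had 0 reads in all 4. Gal stood at 3779, 3173, 3450.1 and 3588 TPM in libraries 1 to 4 (3498 ± 255). Pmch stood at 3470.4, 2544, 1735 and 2124 TPM (2468 ± 745), and Hcrt, the orexin precursor, at 1806, 1340.1, 1841 and 1413 TPM (1599.9 ± 260.1). Pmch was highest in library 1, at 2.0 times its level in library 3, while Hcrt was high in libraries 1 and 3. The ranges of Gal and Pmch overlapped, as did those of Pmch and Hcrt. These 3 genes held 0.757 ± 0.099% of all TPM and the whole precursor list 1.10 ± 0.10%.

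Below them came Scg2 (secretogranin II, 838 ± 18.1 TPM), Sst (somatostatin, 630.0 ± 93.9), Cartpt (the CART precursor, 341 ± 30.2) and Penk (proenkephalin, 245 ± 34.5). From Hcrt down to Penk the ranges of neighbours did not overlap in TPM. Estimated reads, which are not scaled by length, gave another order. By reads Scg2 (32350 to 35588) lay above Hcrt (7000 to 9666) in every library. It also lay above Pmch (17117 to 36244) in libraries 2 to 4, and above Gal (30717 to 37552) in libraries 2 and 3. The read ranges of Sst (4534 to 6663), Cartpt (4384 to 5528) and Penk (3774 to 5398) overlapped. Tac1 (substance P, 203 ± 23.3 TPM), Trh (thyrotropin-releasing hormone, 179 ± 28.7), Pdyn (prodynorphin, 143 ± 12), Npvf (the RFamide-related peptide precursor, 134 ± 49.9), Tac2 (neurokinin B, 109.9 ± 19.3) and Ghrh (growth hormone-releasing hormone, 97.3 ± 33.8) followed. Each of these overlapped with the next in range, so their order is not fixed by these libraries. Ghrh lay above Nucb2 (nesfatin, 54.6 ± 5.25 TPM) in every library. Grp (gastrin-releasing peptide) stood at 52.5 ± 2.17 TPM and Npy (neuropeptide Y), Nts (neurotensin) and Pnoc (the nociceptin precursor) at 44.9 ± 15.1, 42.0 ± 4.50 and 23.3 ± 2.47.

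**Figure D1:**
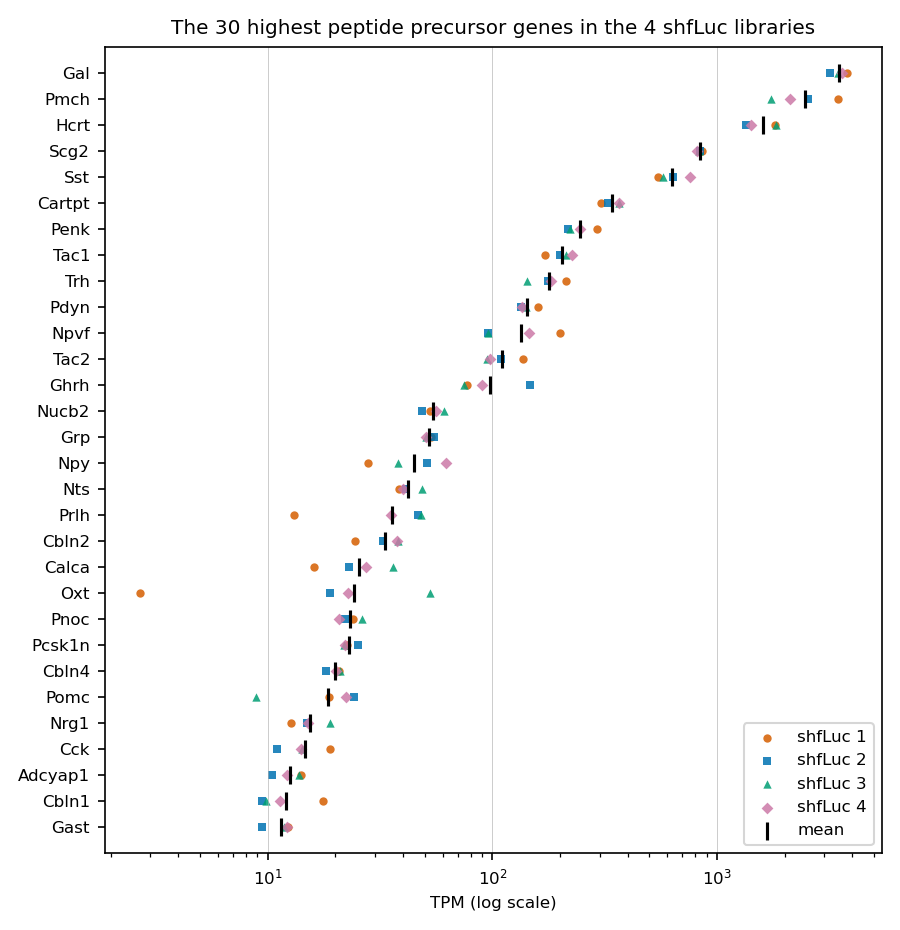
TPM (log scale) of the 30 highest peptide precursor genes, with 1 symbol per shfLuc library and a bar at the mean of the 4. Gal, Pmch and Hcrt lie at 1340.1 TPM or more in every library, and Oxt spreads the most, from 2.70 to 52.8 TPM (10 to 176 reads).

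Several precursors differed among the libraries more than genes of their level usually did. Of 31 precursors detected at 10 TPM or more, 7 were at least 2 times higher in the highest library than in the lowest, against 1.33% of all detected genes at that level. Oxt (oxytocin) was the widest, at 2.70, 18.9, 52.8 and 22.9 TPM in libraries 1 to 4, from only 10, 66, 176 and 87 reads. It was low in library 1 and high in library 3, and its mean of 24.3 ± 20.9 TPM became 14.8 ± 10.7 without library 3. Prlh (prolactin-releasing hormone) stood at 13.0, 46.7, 48.2 and 35.4 TPM and was low in library 1 alone. It rests on only 24 to 83 reads a library. Npvf stood at 200.3, 96.0, 95.5 and 146 TPM, highest in library 1 as Pmch was. The others were Pomc (proopiomelanocortin), Npy, Calca (the calcitonin gene-related peptide gene) and Pmch itself. Pomc was lowest in library 3 (8.86 TPM) and ran from 18.6 to 24.3 in the others. In a microdissected piece, more cells of a type and more RNA per cell cannot be told apart, and where each cut fell is not given in the labels.

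Some precursors known from the hypothalamus were not seen. Avp (vasopressin), Kiss1 (kisspeptin), Ucn (urocortin), Galp and Pyy had 0 reads in each library, which allows up to 3 reads, or 0.117 to 0.130 CPM (reads scaled to a fixed library total). This floor covers counting error only. Crh (corticotropin-releasing hormone) stood at 0.906 ± 0.202 TPM, Vip at 0.672 ± 0.727 (0.313 ± 0.126 without library 3) and Agrp (agouti-related peptide) at 2.16 ± 0.964. Qrfp stood at 0.41 TPM and Nps, Gcg and Cort at 0.12 TPM or less on average.

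Genes that process and store peptides were nearly all present, with 19 of 20 detected (95%, against 55% of all protein-coding genes). Cpe (carboxypeptidase E, which trims precursors after cutting) stood at 1918 ± 131 TPM. Scg5, the chaperone of the convertase Pcsk2, stood at 720.0 ± 27.2 TPM, against 65.8 ± 2.17 for Pcsk2 itself and 13.4 ± 1.05 for the other main convertase, Pcsk1. Chgb and Scg3, granule proteins, stood at 202 ± 4.0 and 168 ± 8.81 TPM. Qpct, which forms the blocked N-terminus of peptides such as thyrotropin-releasing hormone, stood at 143 ± 4.79 TPM. Pam, which amidates peptides, stood at 97.0, 115, 164 and 168 TPM, low in libraries 1 and 2. Mme (neprilysin, which degrades peptides) was the member below 1 TPM in every library, at 0.563 ± 0.112.

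Markers of both fast transmitters were present, with glutamate release carried by 1 of the 3 vesicular glutamate transporter genes. Slc17a6 stood at 75.7, 73.0, 79.0 and 73.6 TPM, level across the libraries, while Slc17a8 stood at 0.519 ± 0.220 and Slc17a7, the transporter of cortex and much of thalamus, at 0.0058. For GABA, the synthesis enzymes Gad1 and Gad2 stood at 181 ± 13.5 and 97.8 ± 2.57 TPM. The uptake carrier Slc6a11 stood at 97.5 ± 8.84 TPM, and the vesicular carrier Slc32a1 at 8.43 ± 1.17. Gad1 was 2.41 ± 0.13 times Slc17a6, and Slc17a6 was 9.06 ± 1.21 times Slc32a1 (SD over the 4 libraries), or 16.8 times on CPM, which is not scaled by length. The 2 ratios point in opposite directions, so the balance of both transmitters is not read from them. Slc6a5, the glycine transporter of glycinergic neurons, stood at 0.016 TPM.

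Of 16 monoamine genes 9 were detected (56.25%, near the 55% of all protein-coding genes). Ddc and Th, enzymes of dopamine synthesis, stood at 77.8 ± 7.06 and 68.1 ± 4.74 TPM, and the dopamine transporter Slc6a3 at 2.67 ± 0.485. Hdc, the enzyme that makes histamine, stood at 26.3, 36.4, 46.9 and 43.3 TPM, lowest in library 1. Hdc is also known from ependymal cells. Slc18a2, the vesicular monoamine transporter, stood at 26.5 ± 4.17 TPM. The markers of noradrenaline and serotonin neurons were near 0: Dbh stood at 0.050 TPM, Slc6a2 had no reads, Tph2 stood at 0.31 and Slc6a4 at 0.026. Ache, which degrades acetylcholine, stood at 37.6 ± 2.64 TPM and Chat, which makes it, at 0.856 ± 0.212.

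Receptors of neuropeptides were detected at 48 of 82 genes (58.5%, near the 55% of all protein-coding genes). The 3 highest were Ednrb, the endothelin B receptor that astrocytes carry, at 107 ± 15.1 TPM, Oprl1, the nociceptin receptor, at 101 ± 7.16, and Ntsr2, a neurotensin receptor of astrocytes, at 94.5 ± 12. Adcyap1r1 (the PACAP receptor) stood at 48.1 ± 2.79 TPM and the accessory proteins Ramp1 and Mrap2 at 47.6 ± 5.90 and 40.8 ± 5.68. Oprk1 (the dynorphin receptor), Calcr (the calcitonin receptor) and Brs3 (bombesin receptor subtype 3, known for control of body temperature) stood at 32.2 ± 4.92, 23.8 ± 2.68 and 22.4 ± 2.93 TPM. Of the 14 neuropeptide receptor genes detected at 10 TPM or more 0 differed 2-fold among the libraries, which is near the share of all genes (1.33%).

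Receptors of the highest precursors stood far below them. Gal at 3498 TPM stood beside Galr1 at 7.52 ± 1.21, Galr2 at 1.48 ± 0.37 and Galr3 at 0.236. Pmch stood beside Mchr1 at 4.85 ± 0.49 TPM, and Hcrt beside Hcrtr2 at 13.4 ± 1.48 and Hcrtr1 at 1.70 ± 0.32. Sst stood beside Sstr2 at 5.0 ± 1.08 TPM and Sstr1 at 4.26 ± 0.56. Pnoc and Oprl1 showed the opposite order, with the receptor above the precursor, and so did Nts and Ntsr2. The other neurotensin receptor, Ntsr1, stood at 5.21 ± 0.86 TPM, below Nts at 42.0. Some receptors were detected though their own precursor was near 0. Glp1r, the receptor of the gut and hindbrain peptide GLP-1, stood at 9.81, 17.7, 18 and 19.4 TPM, low in library 1, and its precursor gene Gcg at 0.11. Npsr1 stood at 7.39 ± 2.19 TPM beside Nps at 0.019, and Avpr1a at 4.65 ± 0.68 beside Avp with no reads. Ghrh showed the reverse, with its receptor Ghrhr at 0.032 TPM. The pairs were chosen with the levels known.

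**Figure D2:**
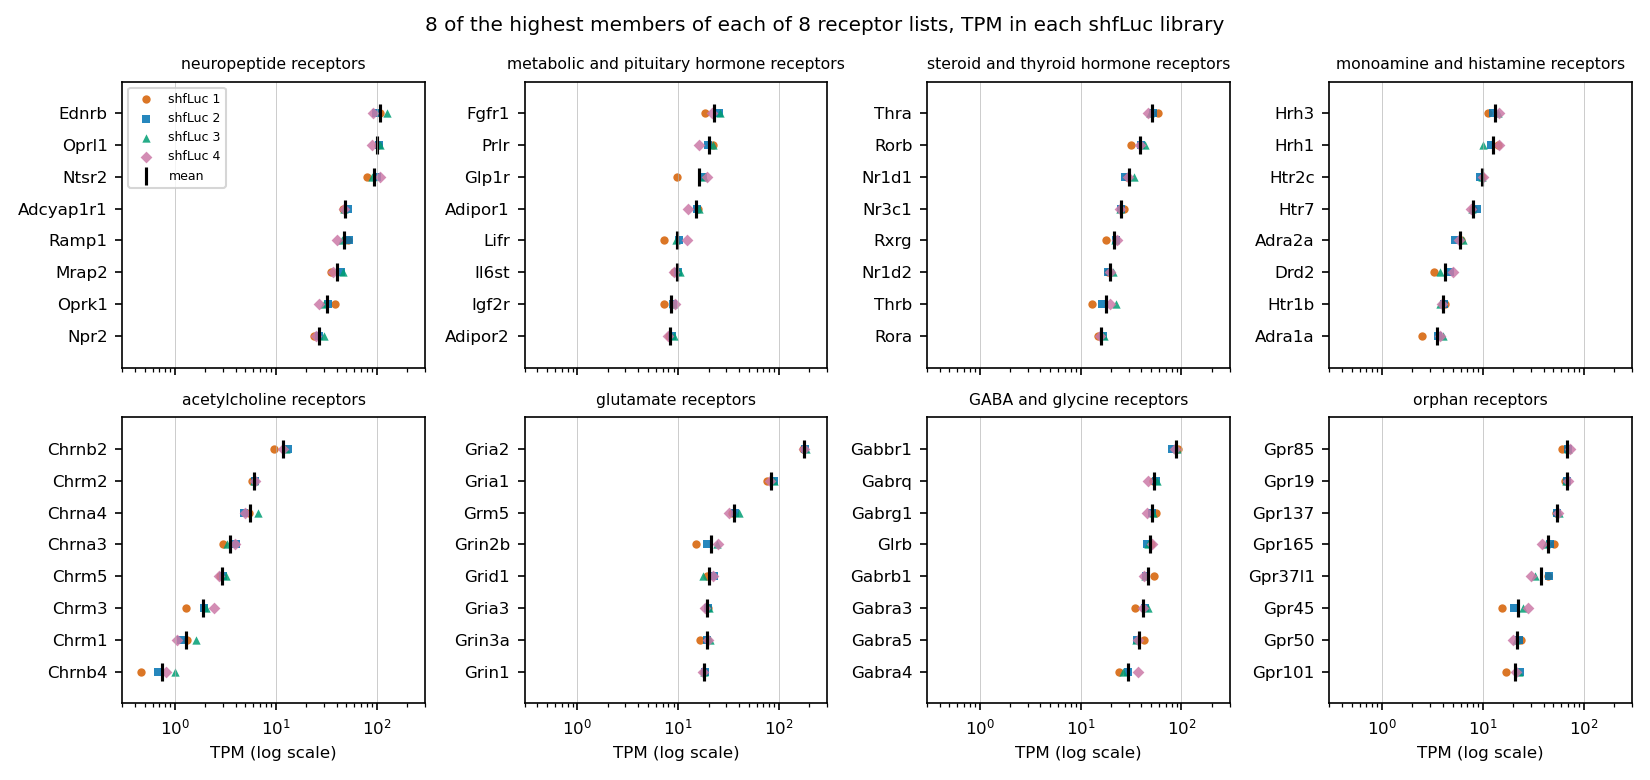
TPM (log scale) of 8 of the highest members of each of 8 receptor lists, with 1 symbol per shfLuc library and a bar at the mean. Gria2, a subunit of the AMPA receptor, is the highest gene shown at 178 TPM, and Glp1r lies lower in library 1 (9.81 TPM) than in the others.

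Of 25 receptors of metabolic and pituitary hormones 12 were detected (48%, against 55% of all protein-coding genes). Fgfr1, a growth factor receptor, stood at 22.9 ± 3.45 TPM and Prlr, the prolactin receptor, at 19.98 ± 2.80. Adipor1, an adiponectin receptor, stood at 14.8 ± 1.61 TPM, and Lifr and Il6st, cytokine receptor chains, at 9.78 ± 2.10 and 9.62 ± 0.67. Insr (insulin) stood at 4.55 ± 0.545 TPM. Lepr (leptin) stood at 0.817, 1.23, 1.01 and 1.45 TPM and Ghsr (ghrelin) at 1.11, 1.5, 0.773 and 1.25, so that both lay around the detection level and missed it in 1 library each. Gipr stood at 0.191 TPM, and Gcgr and Gfral had no reads.

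Nuclear receptors of steroid and thyroid hormones and their orphan relatives were detected at 17 of 24 genes (70.8%, against 55% of all protein-coding genes). Thra, a thyroid hormone receptor, stood at 51.3 ± 5.22 TPM and Nr1d1, a clock repressor, at 30.01 ± 2.69. These 2 genes overlap on opposite strands, and whether counting used strand is not given in the sources used here, so their levels are uncertain. The same holds for Chrnb2, Chrm2, Gpr137, Dbp, Kcnip4, Lhx5, Tbx3, Foxb1, Six6, Alas2, Xist, Prdx5, Trpm3 and Kcnj13. These are named here or labelled in a plot and overlap another gene at 10% of their level or more. Parpbp, plotted as a lateral hypothalamic marker, stood at 7.51 TPM and overlaps Pmch at 2468 TPM on the opposite strand, so its level is uncertain too. Rorb stood at 38.5 ± 4.82 TPM and Nr3c1, the glucocorticoid receptor, at 25.4 ± 1.13. Among sex steroid receptors Esr1 (estrogen alpha) stood at 4.56 ± 0.724 TPM, Pgr (progesterone) at 3.04 ± 0.235 and Esr2 (estrogen beta) at 0.384 ± 0.171.

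Most genes of glutamate (84.6%) and of GABA and glycine receptors (73.1%) were detected, against 55% of all protein-coding genes. Lower shares were seen for receptors of monoamines (45.5%), acetylcholine (33.3%) and purines, cannabinoids, lipids and melatonin (47.6%). Of 26 glutamate receptor genes 22 were detected, led by Gria2 at 178 ± 4.54 TPM, Gria1 at 83.6 ± 6.30 and the metabotropic Grm5 at 35.7 ± 3.32. Of 26 GABA and glycine receptor genes 19 were detected, among them Gabbr1, a subunit of the metabotropic GABA receptor, at 87.4 ± 5.13 TPM. Gabrq, a subunit of few brain regions that include the hypothalamus, stood at 52.9 ± 4.81 TPM, and Gabra6, the subunit of cerebellar granule cells, had no reads. Of 33 monoamine receptors 15 were detected, led by the histamine receptors Hrh3 and Hrh1 (13.1 ± 1.41 and 12.6 ± 1.98 TPM) and the serotonin receptor Htr2c (9.71 ± 0.29). Of 21 acetylcholine receptors 7 were detected, with Chrnb2 highest at 11.8 ± 1.51 TPM. Receptors of purines, cannabinoids, lipids and melatonin were detected at 10 of 21 genes, with Cnr1 (the cannabinoid receptor) at 27.1 ± 3.77 TPM and Mtnr1a (a melatonin receptor) at 0.44.

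Orphan receptors coupled to G proteins were detected at 31 of 39 genes (79.5%, against 55% of all protein-coding genes). Gpr85 and Gpr19 stood at 68.2 ± 5.28 and 67.5 ± 1.97 TPM, Gpr165 at 44.3 ± 5.43 and Gpr50, known from the dorsomedial nucleus and tanycytes, at 22.0 ± 1.90. Gpr45 and Gpr101 stood at 22.1 ± 5.42 and 20.9 ± 2.87 TPM. Gpr37l1, an astrocyte receptor, stood at 38.0 ± 7.78 TPM. Among ion channel families, potassium channel genes and their partners were detected at 55 of 93 (59.1%) and sodium at 8 of 14 (57.1%), near that 55%. Calcium was at 21 of 26 (80.8%), TRP at 10 of 22 (45.5%) and HCN at 3 of 4. Scn2b, a sodium channel beta subunit, was the highest gene of these families, at 193, 267, 337 and 339.5 TPM, low in library 1. Kcnip4 and Kcnj10 led the potassium channel genes at 73.0 ± 1.80 and 52.4 ± 4.67 TPM; the second is the potassium channel of astrocytes.

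Transcription factors of the forebrain ran from no reads to 236 TPM. Of 106 forebrain patterning factors 61 were detected (57.5%, near the 55% of all protein-coding genes). Highest were Peg3 at 236 ± 14.2 TPM, Camta1 at 141 ± 10.1, Isl1 at 99.2 ± 8.82, Tcf4 at 98.1 ± 2.09, Myt1l at 95.6 ± 8.65 and Nr2f2 at 79.3 ± 9.96. Isl1, a LIM homeobox factor of arcuate and other tuberal neurons, was far above the next LIM homeobox genes, Lhx1 at 4.27 ± 0.728 TPM and Lhx5 at 2.46 ± 0.50. Nkx2-1, which specifies the tuberal hypothalamus, stood at 6.66 ± 1.13 TPM, Otp at 6.64 ± 0.277 and Bsx at 7.28 ± 0.457. Tcf7l2, which is high in thalamus, stood at 26.05, 58.0, 63.0 and 59.8 TPM, with library 1 far below the others.

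Genes of the Hox, Pax, Irx, Zic and T-box families were low, at 1.634 TPM or less on average. Of 39 Hox genes, which mark hindbrain and spinal cord, none was detected and 38 had no reads in any library. None of 9 Pax, 6 Irx and 5 Zic genes was detected, and Pax6 was the highest of them at 1.24 ± 0.43 TPM. T-box genes were detected at 1 of 16 (Tbx3, an arcuate factor, 1.63 ± 0.034 TPM). Sox, Pou, forkhead and Nkx genes were detected at 10 of 19 (52.6%), 6 of 15 (40%), 13 of 44 (29.6%) and 4 of 14 (28.6%), against 55% of all protein-coding genes. They were led by Sox11 (34.1 ± 5.13 TPM), Pou2f1 (13.1 ± 1.13), Foxn3 (40.8 ± 8.60) and Nkx2-1.

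Clock genes were detected at 19 of 20 (95%, against 55% of all protein-coding genes). Bhlhe41, a repressor of the clock, stood at 56.0, 65.3, 80.3 and 93.0 TPM and Per3 at 42.4, 62.4, 75.6 and 74.6. Both were lowest in library 1, as were 36.7% of all detected genes. Ciart stood at 44.4 ± 4.55 TPM, Dbp at 40.1 ± 5.98, Clock at 11.3 ± 0.757, Arntl (BMAL1) at 8.44 ± 1.48 and Per2 at 3.91 ± 0.241. Immediate early genes, which rise within minutes of neuronal activity, were detected at 9 of 19 (47.4%). Jund stood at 20.5 ± 2.16 TPM and Fos at 5.0, 7.47, 10.9 and 8.96, while Npas4 stood at 0.32 and Fosb at 0.21.

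The labelled nucleus was checked against markers of the dorsomedial nucleus and its neighbours. Of 20 genes known from dorsomedial and nearby tuberal cells 16 were detected (80%, against 55% of all protein-coding genes). Trh, Pdyn, Npvf, Ppp1r17 and Grp stood above 50 TPM. The arcuate (84.6%), lateral hypothalamic (90%) and zona incerta and thalamus (92.9%) lists had higher shares, so the count does not single out this nucleus. Hmx2 (3.39 ± 0.458 TPM) and Prdm13 (2.62 ± 0.501) were detected, and Rxfp1 was below 1 TPM in every library. The region with the highest markers was the lateral hypothalamus, where 9 of 10 genes were detected and Pmch and Hcrt stood far above any dorsomedial marker. Orexin and MCH neurons are known to spread from the lateral hypothalamus toward the dorsomedial nucleus, and how many such cells were cut cannot be read from bulk levels.

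Markers of other neighbours were mixed, and their counts stand beside 55% of all protein-coding genes detected. For the ventromedial nucleus, its defining factor Nr5a1 stood at 1.25, 0.511, 0.202 and 0.101 TPM and Fezf1 at 5.88, 0.387, 0.857 and 1.34, both highest in library 1. Without library 1 their means of 0.515 and 2.12 TPM became 0.271 ± 0.214 and 0.862 ± 0.478. The wider ventromedial list was detected at 9 of 12, led by Dlk1 at 101 ± 5.61 TPM, which many hypothalamic neurons express. The arcuate list was detected at 11 of 13. Its members Ghrh, Npy and Pomc (97.3, 44.9 and 18.5 TPM) were well above Agrp at 2.16 and Kiss1 with no reads. For the paraventricular nucleus, Sim1 stood at 1.09 ± 0.228 TPM, Crh at 0.906 and Avp at 0, beside Oxt with its wide range. In this list 8 of 11 were detected, led by Trh at 179 TPM and Calb2 at 155. For the suprachiasmatic nucleus, Vip, Six6 and Nms were each below 1 TPM on average and 4 of 9 were detected. These were Grp at 52.5 TPM, Rgs16 at 7.63, Lhx1 at 4.27 and Prok2 at 1.97. Mammillary genes were detected at 4 of 10, with Hdc at 38.2 TPM, Cck at 14.6, Foxp2 at 14.3 and Foxb1 at 2.30 ± 0.462. The zona incerta and thalamus list was detected at 13 of 14, with Pcbd1 at 186 TPM, Calb2 at 155 and Tcf7l2 at 51.7. Slc17a7 stood at 0.0058 TPM. The telencephalon list was detected at 3 of 10, with Cux2 at 9.67 TPM, Ppp1r1b at 2.55 and Neurod6 at 1.77. Emx1, a factor of the cortex, stood at 0.028 TPM. Several genes belong to more than 1 of these lists.

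**Figure D3:**
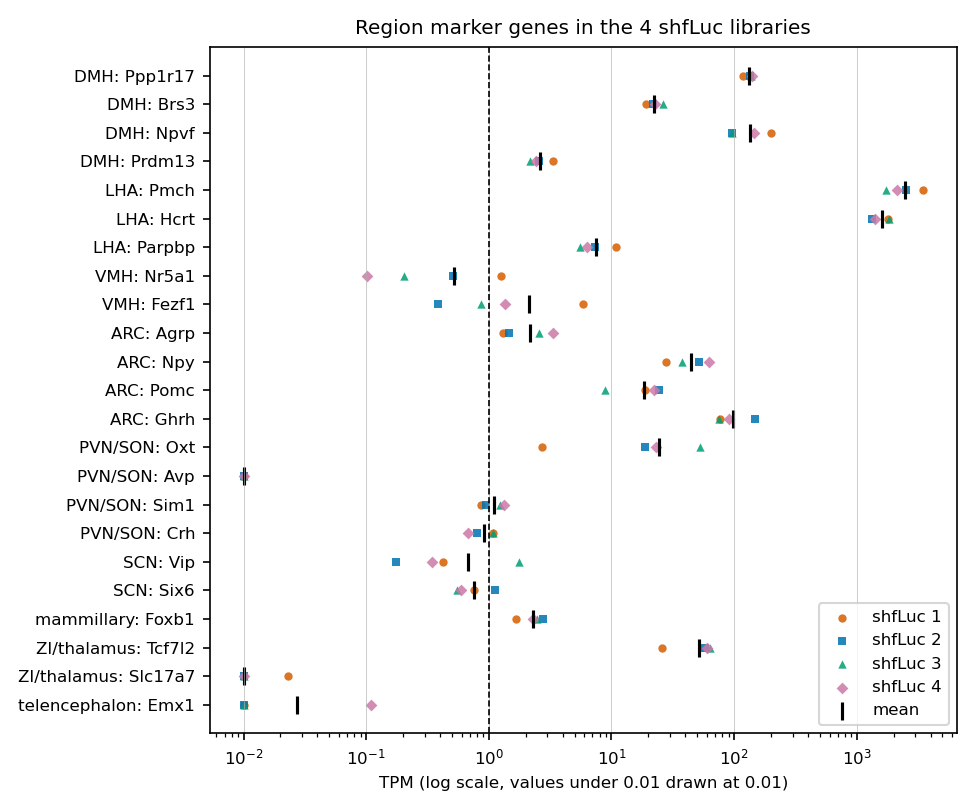
TPM (log scale) of marker genes of the dorsomedial nucleus (DMH), lateral hypothalamic area (LHA), ventromedial (VMH), arcuate (ARC), paraventricular and supraoptic (PVN/SON) and suprachiasmatic (SCN) nuclei, mammillary region, zona incerta (ZI) and thalamus, and telencephalon, with 1 symbol per shfLuc library, a bar at the mean and a dashed line at 1 TPM. The genes were chosen with their levels known. Parpbp overlaps Pmch on the opposite strand, so its level is uncertain. Pmch and Hcrt lie above all others shown, and Nr5a1 and Fezf1 are highest in library 1.

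Neurons and all main glial types were represented, as the plot of cell type markers shows. The counts stand beside 55% of all protein-coding genes detected. Of 16 neuronal markers all were detected, led by Gap43 at 1526 ± 97.4 TPM and Snap25 at 1172 ± 79.9. All 15 astrocyte markers were detected, led by Aldoc at 848 ± 52.1 TPM, Slc1a3 at 359 ± 43.7 and Agt at 232 ± 7.76. The 15 oligodendrocyte markers were all detected as well, among them Mbp (myelin basic protein) at 206 ± 15.5 TPM. The summed levels of these 3 lists varied little, from 6211 to 6752 TPM, 2140 to 2380.1 and 862 to 936. Single astrocyte markers varied more. Of 15 at 10 TPM or more, 2 differed at least 2-fold (13.3%, against 1.33% of all such genes). Gfap stood at 46.1, 22.6, 30.7 and 28.5 TPM and Gjb6 at 102, 96.4, 69.1 and 141. Of the 16 neuronal and 8 oligodendrocyte markers at that level 0 did so. Oligodendrocyte precursor markers were detected at 7 of 10, with Pdgfra at 6.89 ± 0.444 TPM.

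Microglial and macrophage markers were detected at 14 of 17, with Ctss at 232, 153, 183 and 132 TPM and C1qb at 142, 106, 118 and 88.1. Both were highest in library 1 and lowest in library 4, and 10 of the 14 detected markers were highest in library 1 and 10 were lowest in library 4. Of all detected genes 21.3% were highest in library 1 and 26.3% lowest in library 4. The genes of border macrophages, Mrc1, Cd163 and Lyve1, were below 1 TPM in every library. Endothelial markers were detected at 9 of 12 (Cldn5 at 22.4 ± 3.20 TPM), pericyte and smooth muscle markers at 7 of 10 and those of vascular leptomeningeal cells at 4 of 8. Ependymal markers were detected at 6 of 7, and 5 of these 6 were highest in library 2, where 23.9% of all detected genes were highest, and 4 were lowest in library 4. Tanycyte markers were detected at 5 of 10, with the defining factor Rax at 0.613 ± 0.283 TPM. For choroid plexus 4 of 6 were detected, but Ttr, by far its most abundant gene, stood at 3.30 ± 0.357 TPM and Folr1 at 0.075.

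**Figure D4:**
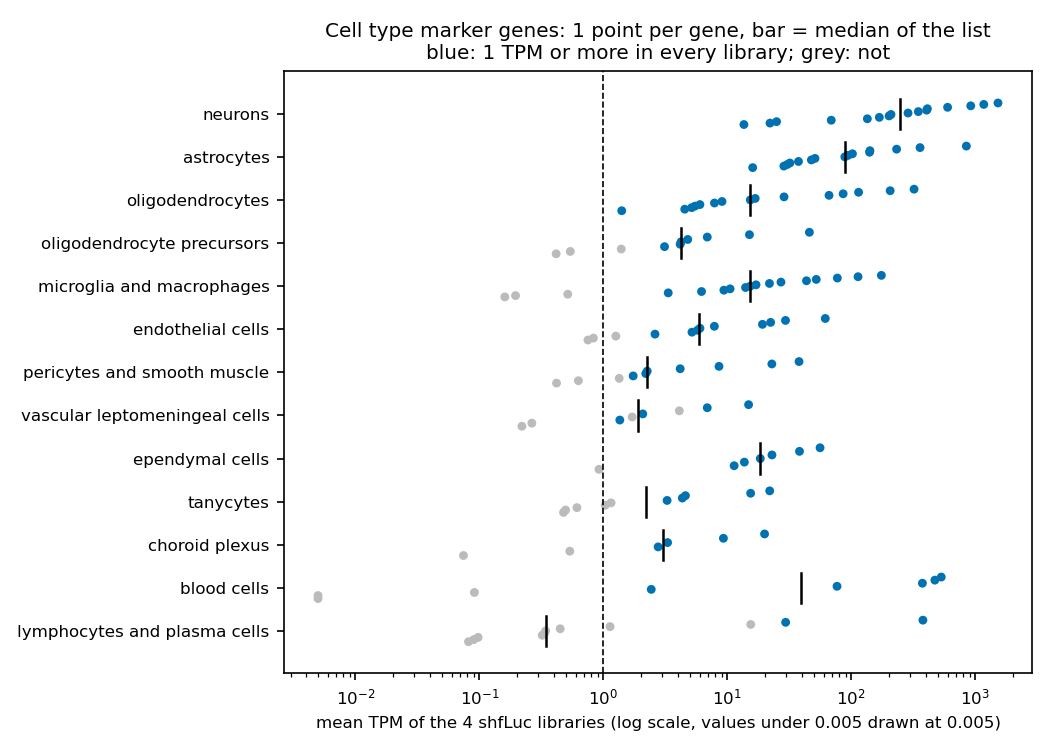
Mean TPM of the 4 shfLuc libraries (log scale) of each marker gene of 13 cell type lists, with a bar at the median of the list and a dashed line at 1 TPM. Blue points are genes at 1 TPM or more in every library and grey points are the others. All 16 neuronal, 15 astrocyte and 15 oligodendrocyte markers are blue, and 2 of 11 lymphocyte and plasma cell markers are.

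Blood and lymphoid RNA differed between libraries. The blood list was detected at 5 of 8, through the hemoglobin genes and Alas2. Hba-a2 stood at 665, 462, 601 and 398 TPM, and all 5 detected members were lowest in library 4. The erythroid genes Slc4a1 and Hemgn had no reads. The 2 alpha and the 2 beta hemoglobin genes are near-identical, so the split within each pair is uncertain. Igkc, the kappa light chain constant gene of antibodies, stood at 1358, 41.0, 113 and 1.39 TPM. Its mean of 378 ± 655 TPM became 51.7 ± 56.5 without library 1. Jchain, which joins secreted antibodies, stood at 49.98, 1.71, 9.40 and 0.739 TPM. Ighm, the heavy chain constant gene of IgM, went the other way and was lowest in library 1, at 23.9, 34.2, 28.0 and 32.2 TPM. Lymphocyte surface genes were low: Cd79a stood at 1.295, 0.227, 0.189 and 0.085 TPM, the T cell gene Cd3e at 1.345 in library 1 with no reads in the others, and Ms4a1 at 0.136 or less.

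Variable segments of antibody genes were also highest in library 1. There 19 of 218 variable segment genes stood at 1 TPM or more, and their list summed to 1237 TPM, of which Igkv4-70 held 36.8%. The sums were 27.3, 92.6 and 0.298 TPM in libraries 2 to 4. Ighg1, an IgG constant gene, stood at 227 TPM in library 1 and had no reads in the other 3. Variable segments are similar in sequence, and which of them a read came from is uncertain. Cd74, the invariant chain of MHC class II, stood at 116, 19.5, 26.1 and 7.85 TPM, and its mean of 42.3 ± 49.6 became 17.8 ± 9.23 without library 1. B2m stood at 516, 287, 286 and 201 TPM and H2-D1 at 92.9, 55.9, 53.7 and 40.8. B2m and H2-D1 were named after their values were seen. Immunoglobulin genes held 0.0833% of reads in library 1 and at most 0.00958% in the others. Their part in the other differences of library 1 was not tested.

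Imprinted genes, expressed from 1 parental copy and known for high levels in the hypothalamus, were all detected, 20 of 20. Snrpn stood at 1688 ± 106 TPM, Nap1l5 at 1218 ± 70.1, Gnas at 1216 ± 38.7, Nnat at 978 ± 198, Ndn at 313 ± 18.8 and Peg3 at 236 ± 14.2. Of the 17 imprinted genes at 10 TPM or more 0 differed 2-fold among the libraries, again near the 1.33% of all genes. Genes of the Y chromosome were present in all 4 libraries, with Ddx3y at 50.5 to 61.3 TPM and Eif2s3y at 43.7 to 52.8, and Xist, which is made by the inactive X chromosome of females, was at most 0.017.

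The 4 libraries were close for most genes. The median CV of detected genes was 11.3%, and it was 8.55% for those at 10 TPM or more on average. Without library 1 the median over detected genes was 9.57%. Highest and lowest library differed at least 2-fold for 952 detected genes (7.05%). The 12 most variable genes at 10 TPM or more, after allowing for counting noise, were antibody and antigen presentation genes apart from Rny1, a small RNA counted from 0 to 7 reads. The 8 steadiest genes at 200 TPM or more were led by Uqcrc1, a mitochondrial respiratory chain subunit, at 327, 331, 328 and 327 TPM (CV 0.643%), and Hint1 (1491 ± 11 TPM). Mdh1, Dctn3, Stmn1, Tagln3, Rit2 and Prdx5 made up the rest, each with a CV of 1.19% or less.

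**Figure D5:**
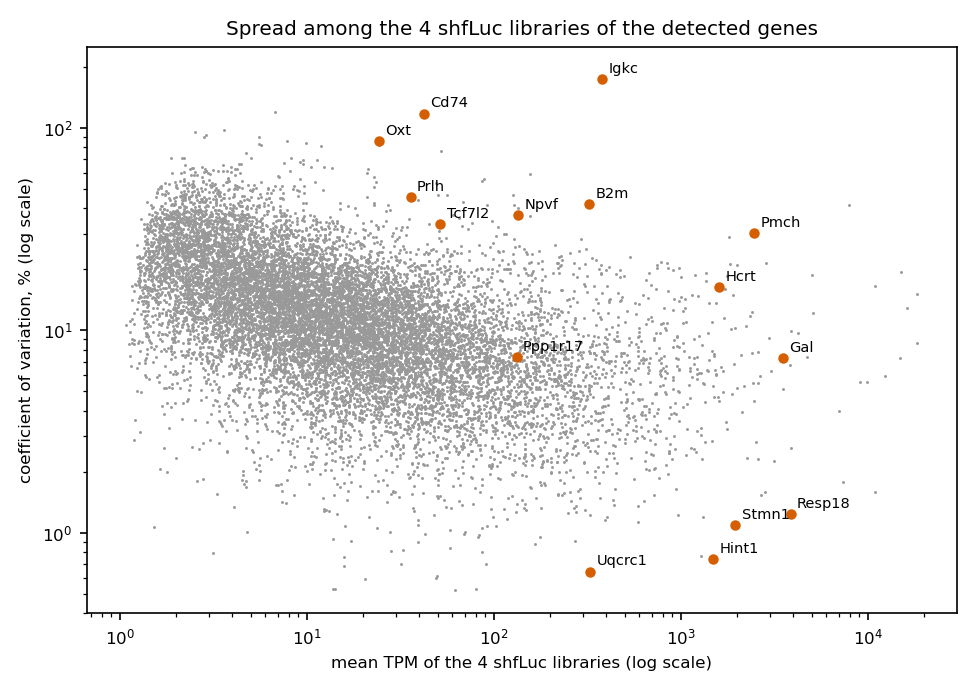
Coefficient of variation among the 4 shfLuc libraries (log scale) against mean TPM (log scale) for the 13509 detected genes, with named genes in orange. Igkc, Cd74 and Oxt lie far above genes of their level, while Uqcrc1, Hint1, Stmn1 and Resp18 lie at the low edge.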

How the data were processed

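RNA from laser microdissected mouse tissue was extracted (PicoPure) and amplified from mRNA (SMARTer), per the labels' protocols. Gene tables deposited by the authors give TPM and expected counts (estimated reads) per Ensembl gene, per the file headers. Tools in the submitters' processing notes are DRAGEN, bcl2fastq, limma and edgeR. The reference build is not given in the sources used here, nor is any tool's version, so no coordinates or sequences are printed. Symbols were found for 55141 of 55487 identifiers, and the rest held up to 0.0308% of the reads of a library. PCR copies of 1 molecule cannot be told apart, so the 3-read floor covers counting error only.

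Means and SDs were taken over the 4 shfLuc libraries with Python 3.11.15, pandas 2.3.3 and NumPy 2.4.6; no groups were compared, and the single criterion applied was Dixon's, for a library apart from the other 3. The 42 gene lists (740 of 744 symbols matched) and 15 families, and the study part itself, were chosen with earlier results of these data known. Genes named were the 20 highest nuclear and 5 highest mitochondrial genes, Ppp1r17, up to 6 members a list and 3 a family by mean TPM, defining markers below 1 TPM, and the 12 most variable and 8 steadiest genes. Others were named after their values were seen, and a few that the rule selects are not reported here. Of 305 such genes, 34 share exon positions with another gene at 10% of their level or more. The computation of spread was checked on simulated data. Alternatives used TMM factors and dispersions (edgeR 4.0.16) and DESeq2 1.42.0 size factors on the rounded expected counts, CPM, other thresholds, rescaling without mitochondrial genes and each library left out.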

Additional observations from a re-analysis of the deposited data

Results flagged for a closer look

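In 23 of 305 named genes the highest or the lowest of the 4 libraries stood apart from the other 3 by Dixon's criterion at 95%, which chance alone meets in about 1 of 20 such groups. Of these, 13 were among the genes named for their large or small spread. Among the 267 genes named for other reasons and at 1 TPM or more in a library, 10 were set apart (3.75%), which is no more than chance gives. Library 1 was the one apart in 7 of the 10, library 2 in 1 and library 3 in 2.

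Genes picked for their large spread were high in library 1. Igkc stood there at 1358 TPM against 1.39 to 113 in the others. Ighg1 (227 TPM), Igkv4-70 (455.9), Igkv2-137 (214.9), Igkv6-17 (165.5), Ighv1-62-2 (49.70) and Igkv8-30 (44.02) had no reads in the other 3, and passed the 10 TPM minimum through library 1 alone. Ighv1-81 stood at 102.7 TPM against at most 1.78, Ighg2c at 68.74 against at most 7.87, and Cd74 at 115.8 against at most 26.1. Rny1 was high in library 3 at 33.18 TPM.

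Genes picked for other reasons were set apart in library 1 in both directions. The microglial C1qa was high at 34.48 TPM against 23.7 to 25.2, the B cell gene Cd79a at 1.295 against at most 0.227, and Gda, a ventromedial marker, at 12.09 against 8.58 to 8.85. Low were Tcf7l2 at 26.05 TPM against 58.0 to 63.0, Peg3 at 215 against 242 to 245, Pou6f1 at 8.223 against 10.3 to 10.7 and the channel Trpm3 at 8.334 against 9.96 to 10.2.

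In library 2 the channel gene Hcn3 was high at 5.042 TPM against 3.68 to 3.88. In library 3 the growth factor Igf2 was low at 0.946 TPM against 4.97 to 5.38, and P2ry12 at 39.52 against 44.6 to 45.2. In library 4 Tagln3 was high at 596.9 TPM and Prdx5 low at 395.9; both were picked as steady genes, so these gaps are small.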

How the results depend on the processing

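The number of detected genes ran from 11945 (2 TPM) to 15575 (10 reads in every library) over the other thresholds, and from 13666 to 13730 with a library left out. The 100 highest genes held 27.7% of TPM without the mitochondrially encoded genes and 34.0 to 34.6% with a library left out. The median CV of detected genes was 10.2% on CPM, 8.55% over genes at 10 TPM or more and 16.2% over any gene above 0 in every library. With a library left out it ran from 9.57% (without library 1) to 11.1%. The ratio of Slc17a6 to Slc32a1 was 16.8 on CPM, which is not scaled by length, and 8.46 to 9.33 with a library left out. At least 9 of the 10 highest peptide precursors stayed among the 10 highest on CPM and with each library left out. TMM scaling moved no named gene's mean by more than 0.439%, and leaving out mitochondrially encoded genes multiplied all others by 1.13. Among named genes at 1 TPM or more in a library, leaving out library 1 moved the mean by over 1.5 times for 14 (Fezf1, Nr5a1, Cd74 and antibody and B cell genes), besides Cd3e with reads in library 1 alone, and leaving out library 3 for 4 (Oxt, Vip, Rny1 and Kcnj13). The share of detected genes was 27.9% in the 10% of protein-coding genes lowest in GC content, 54.8% in the highest and 51.3 to 60.9% between them, and the cause was not tested. No paired analysis was possible because the results come from no test between groups.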
